A study of Mus musculus with 6 samples.

Results

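The naive T cell identity genes are 10 genes, Lef1, Tcf7, Satb1, Bach2, Foxp1, Foxo1, Igfbp4, Dapl1, Actn1 and Treml2, that are characteristic of T cells which have not yet met their antigen. They were taken by gene symbol from a table of 54532 genes, each symbol matched 1 row, and all 10 were among the 16075 genes that passed the filter on low counts. RNA was sequenced from splenic CD4+ T cells of C57BL/6 mice in acute experimental autoimmune encephalomyelitis (EAE), in which induced autoimmunity damages the brain and spinal cord. The 3 libraries labelled Ogt-KD had the genotype Ogtfl/wt CD4-Cre. That is 1 floxed beside 1 unfloxed copy of Ogt and a Cre recombinase under Cd4 control. The 3 control libraries had the genotype wild type. All 6 libraries came from mice with EAE, and neither age nor sex is given in the labels. The sample titles number the replicates and do not say whether each is 1 mouse. The Y-linked gene Ddx3y had a total count of 0 over the 6 libraries, as in female cells. Ogt encodes O-GlcNAc transferase, which attaches N-acetylglucosamine to nuclear and cytoplasmic proteins. Cre under Cd4 control is active from the thymus onwards, in CD8 as well as CD4 T cells, and no Cre or floxed allele is named for the controls. Effects of the Cre and effects of Ogt therefore cannot be told apart. Nothing in the labels says that libraries with the same replicate number were paired.

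A naive T cell circulates between blood and lymphoid organs in a quiescent state that is actively maintained by transcription factors. TCF1 (the product of Tcf7) and LEF1 share a DNA-binding HMG box and can bind beta-catenin and Groucho/TLE corepressors, and the forkhead factor FOXO1 drives genes for homing and survival until PI3K and AKT signalling expels it from the nucleus. After antigen encounter these genes are turned down in effector cells, and they stay high or return in memory and follicular helper cells to different degrees.

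Total counts ran from 18127031 to 25683453 per library. On the main principal component (44.8% of the variance of log2 CPM) replicate 3 of both groups stood apart from Ogt-KD replicates 1 and 2, at -40.7 and -38.4 against 35.7 and 42.4. Ogt itself stood at 599, 628 and 562 CPM in control replicates 1, 2 and 3 and at 662, 599 and 459 CPM in the Ogt-KD replicates (log2 fold change -0.06, SE 0.15), and these counts over the whole gene do not measure the deletion. CPM are read counts scaled to library size, with library sizes adjusted by the trimmed mean of M values (TMM). Markers of the labelled cell type were present: the summed level of 10 T cell markers was 4714 to 5467 CPM, and Cd4 had 738.5 to 902.7 CPM. Of the CD8 T cell genes, Cd8a had 1.47 to 4.56 CPM and Cd8b1 10.99 to 13.66 CPM. Macrophage markers were also present, with a summed level of 981 to 2335 CPM in the controls and 404 to 2254 CPM in Ogt-KD libraries.

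Promoter windows, from 250 bases before to 50 bases after each RefSeq transcription start (GRCm38.p6), were found for 9 of the members, in 19 windows, and not for Treml2. They were searched on both strands for the core motifs of the factors among the members: CTTTGAT for TCF and LEF, TGTTTAC for forkhead factors, and TGACTCA, which BACH and AP-1 factors share. The forkhead motif was found for 2 of the 9, Dapl1 and Tcf7, and in 4.05% of all 27025 genes with a window. The other motifs were found for 0 of the 9, against 4.29% of all genes for TCF and LEF and 5.95% for BACH and AP-1. A match describes the letters of a window and does not show that a factor binds there. The sequences with a match are shown because Dapl1 had the lowest fold change of the 10 and Tcf7 the highest level; capitals mark the forkhead motif, here as its reverse complement GTAAACA.
Dapl1, chr2:59484403-59484652, plus strand, the 250 bases before the start: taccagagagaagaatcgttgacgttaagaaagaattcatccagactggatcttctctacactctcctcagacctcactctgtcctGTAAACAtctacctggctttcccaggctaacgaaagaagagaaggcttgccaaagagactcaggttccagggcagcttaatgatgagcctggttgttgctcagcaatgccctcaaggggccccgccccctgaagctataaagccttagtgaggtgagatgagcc
Tcf7, chr11:52282577-52282606, minus strand, at an internal start of the gene: acctttataggaGTAAACAgacccccgcca

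All 10 naive identity genes had a lower mean in Ogt-KD than in control libraries, by between 8.56% for Igfbp4 and 40.7% for Dapl1. None of them passed the test over all genes (edgeR quasi-likelihood test, Benjamini-Hochberg adjusted p under 0.05), where 1 of 16075 genes (0.00622%) passed in either direction and 0 (0%) as lower. The lowest adjusted p among the members was 0.536, for Treml2. The median log2 fold change of the members was -0.30, beside -0.00485 for all genes tested, and 51% of all genes lay below 0. At an unadjusted p under 0.05, 6 members were lower in edgeR, where 2.48% of all genes were. The members are not separate observations. Pearson's r between 2 members over the 6 libraries, group difference included, had a median of 0.757 (range 0.204 to 0.978). The other tools run gave 0 members passing, in DESeq2 (0.161% of 17418 genes passing as lower) and in limma-voom (0% of 16075). At an unadjusted p under 0.05 DESeq2, run without the filter on low counts, had 6 members lower (1.36% of 28445 genes). On the filtered genes limma-voom had 4 (2.41% of 16075). The authors' deposited table also has 0 members at an adjusted p under 0.05, where 0.106% of its 26354 genes with a p-value are lower. Its adjusted p is lowest for Treml2, at 0.138. Its unadjusted p is under 0.05 with a lower value for 6 members and for 1.47% of those genes. Its log2 fold changes of the members equal those of the DESeq2 fit (Lef1 -0.4525 in both), so it is not a separate result.

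With the replicate number as a block, 1 member passed as lower, Treml2 (adjusted p = 0.0427 by edgeR). The labels state no such pairing, so p-values of the blocked fit can be too small. In it 47 genes (0.292%) passed in either direction and 15 (0.0933%) as lower. At an unadjusted p under 0.05 that fit had 9 members lower and 5.63% of all genes. The adjusted p of Dapl1 was 0.0703 in that fit and those of the other 8 members ran from 0.116 for Lef1 to 0.638 for Igfbp4. For 6 members the groups did not overlap, with the 3 Ogt-KD values all below the 3 control values, as for 5.88% of all genes tested. The reverse held for 0 members and 7.43% of genes. These were Lef1, Tcf7, Satb1, Foxp1, Actn1 and Treml2. For 9 of 10 members the Ogt-KD library was lower than the control library in each of the 3 same-numbered comparisons, as for 17.4% of all genes. The exception was Bach2, at 100.5% of the control in replicate 3. These are bulk samples, so fewer naive cells and less RNA of these genes in each cell cannot be told apart.

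**Figure D1:**
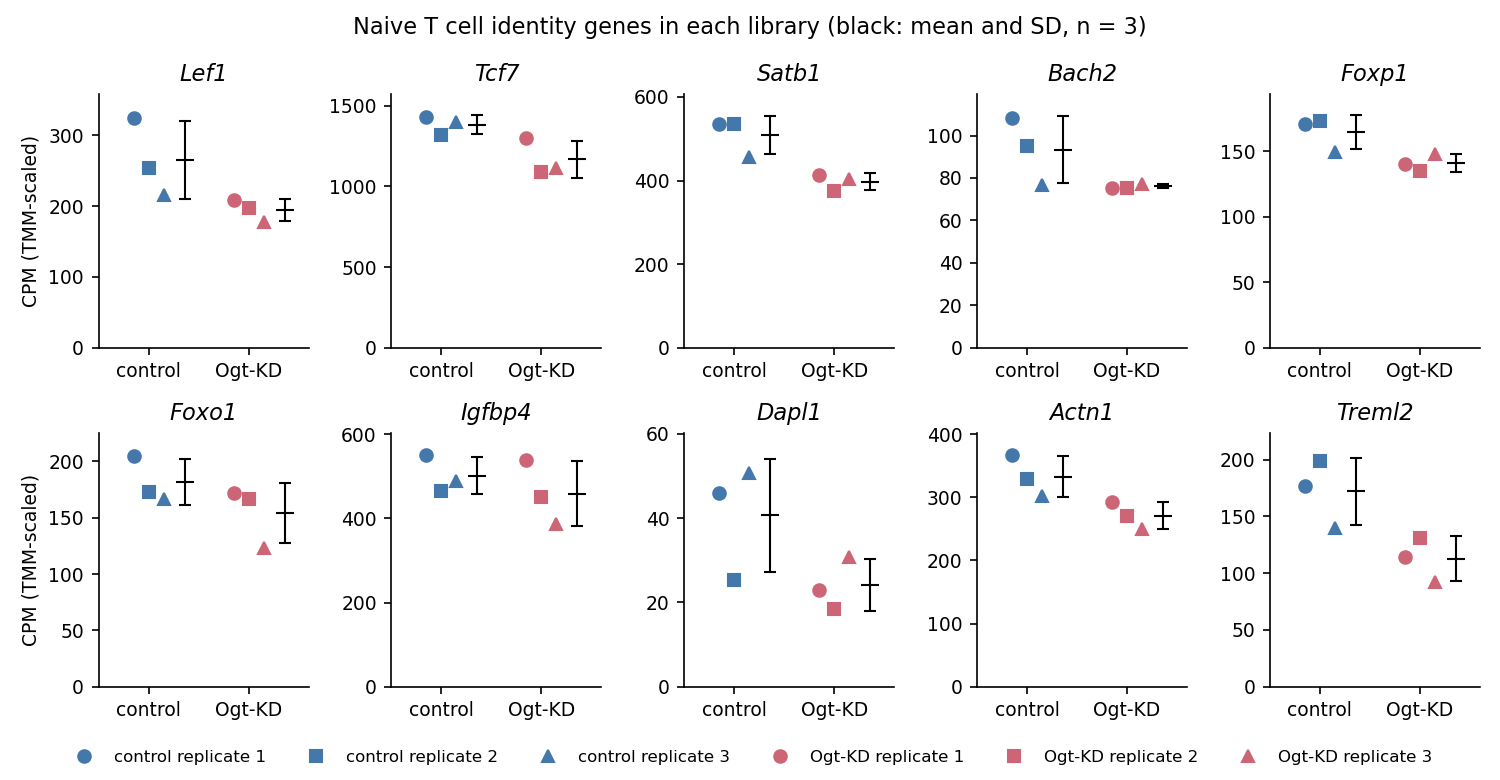
Level of each of the 10 genes in CPM (TMM-scaled; linear axes from 0) in the 3 control (blue) and 3 Ogt-KD (red) libraries, with replicate number by symbol and the mean and SD in black. The groups do not overlap for Lef1, Tcf7, Satb1, Foxp1, Actn1 and Treml2, and control replicate 1 is the highest library for 7 genes.

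The HMG-box factors Lef1 and Tcf7 both had groups that did not overlap, by narrow gaps. Lef1 (3:131110471-131224356 on GRCm38), which with TCF1 sets T cell identity in the thymus and holds it in naive cells, was measured at 325.0, 254.2 and 215.7 CPM in control replicates 1 to 3 and at 208.1, 196.8 and 177.8 CPM in the Ogt-KD replicates. The groups did not overlap, but the highest Ogt-KD value lay close to the lowest control value, and the spread was wider in the controls (SD 55.4 against 15.3 CPM, n = 3 each). The Lef1 log2 fold change was -0.45 (SE 0.16, 95% interval -0.82 to -0.08, edgeR adjusted p = 0.606). It was -0.28 without control replicate 1, the library with the most Lef1 RNA.

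Tcf7 (11:52252371-52283014) stood at 1428, 1320 and 1403 CPM in the controls and at 1297, 1092 and 1112 CPM in the Ogt-KD libraries. Ogt-KD replicate 1 came within a small distance of the lowest control, and the other 2 lay further down. Its log2 fold change was -0.25 (SE 0.12, interval -0.53 to 0.04, edgeR adjusted p = 0.693). The interval for Tcf7 reached 0, whereas that for Lef1 did not, and whether the 2 genes differed in their response was not tested.

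Satb1 and Bach2 are nuclear regulators outside the HMG and forkhead families. Satb1 (17:51736187-51833290) encodes a chromatin organiser needed for thymocyte development and reduced in regulatory T cells. Its level was 535.9, 534.3 and 456.3 CPM in the controls and 413.7, 375.4 and 402.8 CPM in the Ogt-KD libraries, with no overlap. The log2 fold change of Satb1 was -0.36 (SE 0.11, interval -0.61 to -0.10, edgeR adjusted p = 0.556). Bach2 (4:32238804-32586108) encodes a repressor that restrains effector genes, among them Prdm1. Its control values were spread out, at 108.4, 94.9 and 76.7 CPM, while the Ogt-KD values were nearly the same, at 75.5, 75.5 and 77.1 CPM. Control replicate 3 thus lay inside the Ogt-KD range, and the log2 fold change was -0.30 (SE 0.13, interval -0.60 to 0.01, edgeR adjusted p = 0.668). Without control replicate 1 it was -0.18 and without control replicate 3 it was -0.44.

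The forkhead genes Foxp1 and Foxo1 had similar fold changes but different spreads. Foxp1 (6:98925338-99522721), a factor of T cell quiescence, stood at 171.2, 173.1 and 149.6 CPM in the controls and at 140.1, 134.9 and 148.1 CPM in the Ogt-KD libraries. The 2 replicate 3 libraries nearly met, and the others were well separated (log2 fold change -0.22, SE 0.09, edgeR adjusted p = 0.650). Foxo1 (3:52268336-52353221) was at 204.9, 173.1 and 166.7 CPM in the controls and at 171.7, 166.7 and 123.5 CPM in the Ogt-KD libraries. Its groups overlapped, with 1 low library, Ogt-KD replicate 3. The log2 fold change of Foxo1 was -0.24 (SE 0.15, interval -0.59 to 0.12, edgeR adjusted p = 0.807), and it was -0.10 without that library.

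Among the surface, secreted and cytoskeletal members, Treml2 had the smallest p value of all 10. Treml2 (17:48299498-48312533) encodes a receptor of the TREM family that is also made by B cells and myeloid cells. It was measured at 177.2, 199.0 and 140.0 CPM in the controls and at 114.5, 131.4 and 92.0 CPM in the Ogt-KD libraries. All Ogt-KD values lay below all control values, and each Ogt-KD library stood at 64.6% to 66.0% of the control with its number. The Treml2 log2 fold change was -0.61 (SE 0.17, interval -1.02 to -0.21, unadjusted p = 0.00916, edgeR adjusted p = 0.536, 0.0427 with the replicate block), and 273 genes of the table had a smaller p.

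Dapl1 (2:59484653-59505020, deposited length 679 bases), a gene related to Dap that marks naive and memory precursor T cells, had the lowest level in counts. It stood at 45.9, 25.4 and 50.6 CPM in the controls and at 23.0, 18.5 and 30.8 CPM in the Ogt-KD libraries. The groups overlapped because control replicate 2 lay below Ogt-KD replicate 3, and its coefficient of variation was the largest among the members in both groups (33.0% and 25.7%). The log2 fold change of Dapl1 was -0.75 (SE 0.29, interval -1.44 to -0.06, edgeR adjusted p = 0.624), and ran from -0.58 without control replicate 3 to -0.997 without control replicate 2.

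Actn1 (12:80167547-80260371) encodes alpha-actinin 1, a crosslinker of actin filaments. It stood at 366.9, 329.0 and 301.9 CPM in the controls and at 292.1, 270.7 and 250.2 CPM in the Ogt-KD libraries, without overlap (log2 fold change -0.30, SE 0.11, edgeR adjusted p = 0.624). Igfbp4 (11:99041244-99054392), a secreted binding protein of insulin-like growth factors, was at 551.2, 464.3 and 490.2 CPM in the controls and at 539.9, 449.9 and 387.0 CPM in the Ogt-KD libraries. Its groups overlapped through Ogt-KD replicate 1, and Ogt-KD replicates 2 and 3 lay below every control. The log2 fold change of Igfbp4 was -0.13 (SE 0.15, interval -0.47 to 0.22, edgeR adjusted p = 0.941), the nearest to 0 among the members, and it was -0.02 without Ogt-KD replicate 3.

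**Figure D2:**
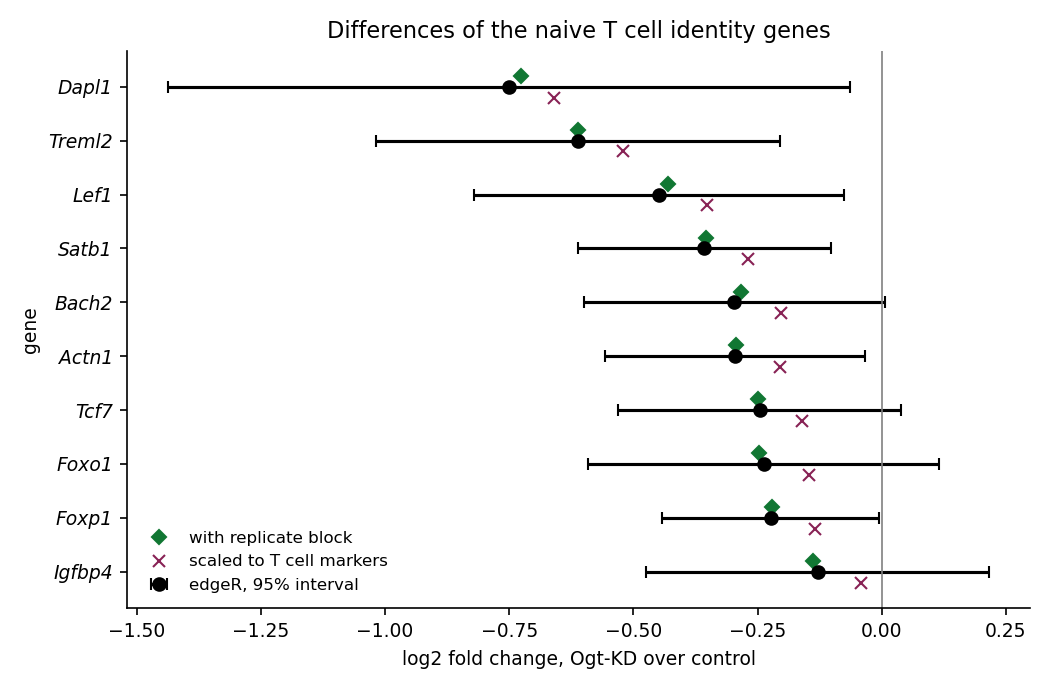
Log2 ratio of Ogt-KD to control for each of the 10 genes, with the 95% interval of the edgeR fit (black), the fit with the replicate block (green) and edgeR with libraries scaled to T cell markers (purple crosses). All points lie below 0, and 6 intervals end below 0.

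Compared per gene length, the members spanned a wide range of levels. In the authors' FPKM (fragments scaled to gene length and library size) the mean control level ran from 524.6 ± 17.6 for Tcf7 through 113 ± 9.11 for Igfbp4 down to 9.34 ± 1.55 for Bach2 (SD, n = 3). Between them came Actn1 (59.8 FPKM), Dapl1 (59.5), Treml2 (34.8), Lef1 (29.98), Satb1 (26.6), Foxo1 (20.8) and Foxp1 (11.9). Tcf7 lay at the 99.5th percentile of the tested genes and Bach2 at the 64.96th. Neighbours whose control ranges overlapped, and whose order is therefore not settled, were Actn1 and Dapl1, Dapl1 and Treml2, Treml2 and Lef1, and Lef1 and Satb1. The order of the means was the same in the Ogt-KD libraries, where Tcf7 had 440.9 ± 41.5 FPKM and Bach2 7.59 ± 0.135 FPKM. In those libraries the ranges of Dapl1 and Treml2 were separate and those of Satb1 and Foxo1 overlapped.

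**Figure D3:**
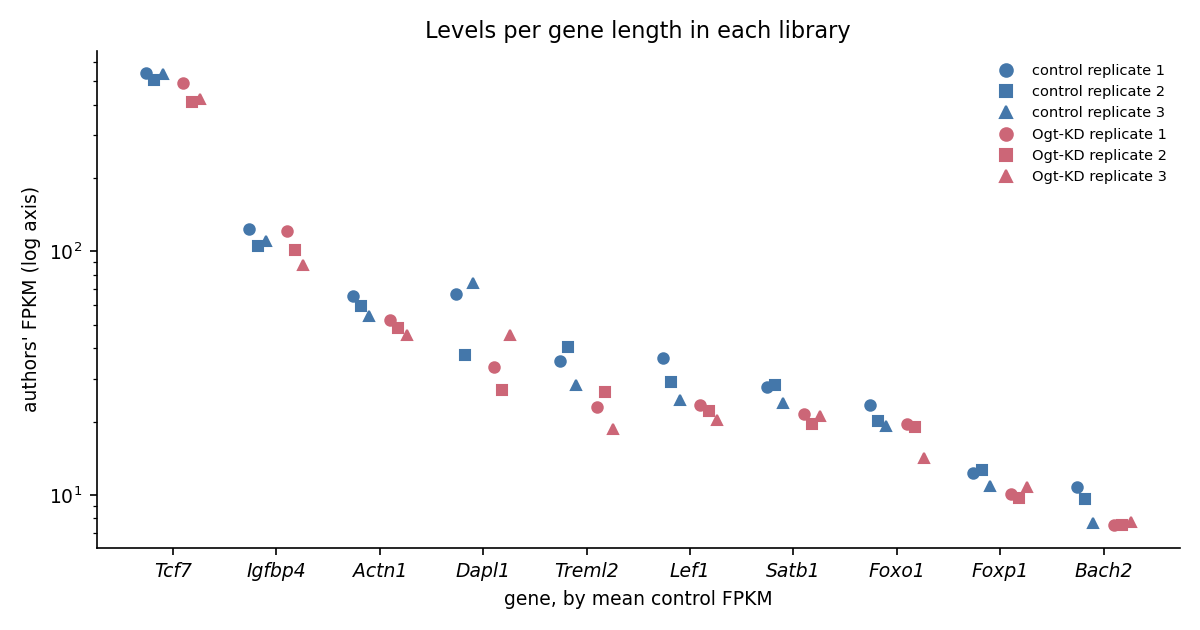
The authors' FPKM of each gene on a log axis in the 3 control (blue) and 3 Ogt-KD (red) libraries, with genes ordered by mean control level. Tcf7 is at 504.4 to 536.9 FPKM in the controls, and Bach2 at 7.69 to 10.8 FPKM.

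Library by library, control replicate 1 was the highest for 7 members, control replicate 2 for Foxp1 and Treml2, and control replicate 3 for Dapl1. The lowest library was Ogt-KD replicate 2 for 5 members and Ogt-KD replicate 3 for the other 5. The mean of the 10 centred log2 CPM values was 0.33, 0.13 and 0.08 in control replicates 1 to 3 and -0.09, -0.20 and -0.24 in the Ogt-KD replicates. The same mean over 15 effector and memory genes was -0.26, -0.19 and -0.21 in the controls and 0.26, 0.26 and 0.14 in the Ogt-KD libraries. On both measures the 2 groups were separate, in opposite directions. The members and these lists were chosen with earlier results of these data known, and the separation was not tested. The mean over 9 quiescence factors was also separate (0.05 to 0.30 in the controls, -0.18 to -0.13 in the Ogt-KD libraries). That over 8 homing and survival receptors was not, since Ogt-KD replicate 3 was the highest library at 0.0803, against 0.0781, 0.0459 and 0.00439 in the controls.

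Related genes were counted in lists that were chosen with earlier results of these data known. In edgeR 0 genes of any of these lists passed over all genes, and the counts that follow are of fold changes above or below 0 and of genes at an unadjusted p under 0.05. Of all genes tested, 2.48% were lower and 5.04% higher at that threshold. Below 0 lay 51% of all genes, and 32.4% with T cell marker scaling. Of 8 receptors of naive cell homing and survival, 6 lay below 0 (median -0.18), with 1 lower at an unadjusted p under 0.05. The median was -0.09 with T cell marker scaling and also without Ogt-KD replicate 2, and -0.12 once control replicate 1 was left out. The 1 gene was Ccr7, the chemokine receptor for entry into lymph nodes, with 265 ± 25.7 CPM in the controls and 221 ± 3.05 CPM in the Ogt-KD group (-0.26 in log2). S1pr1, the receptor for exit from lymphoid organs, had the next smallest p (-0.28, SE 0.16).

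All 9 quiescence factors lay below 0 (median -0.28; 7 of 9 with T cell marker scaling), with 3 lower at an unadjusted p under 0.05. Klf2, a FOXO1 target that sustains quiescence and homing, lay at -0.49 in log2 (SE 0.10, edgeR adjusted p = 0.483) and passed in DESeq2, the only one of the 9 to do so. Btg1, which takes part in mRNA turnover in resting cells, stood at 1185 ± 54.5 and 959 ± 79.8 CPM (log2 fold change -0.30).

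Partners of the HMG-box factors, listed together with the beta-catenin regulators Apc, Axin2 and Gsk3b, lay on the same side as Lef1 and Tcf7. Of the 12 tested, 12 were below 0 (median -0.14), with 2 lower at an unadjusted p under 0.05. With T cell marker scaling 9 of 12 were below 0 (median -0.06), where 32.4% of all genes were. Without Ogt-KD replicate 3 it was 10 of 12 (-0.09). The 2 were corepressor genes. Tle4 was at 68.9, 68.9 and 70.7 CPM in the controls and at 57.0, 54.1 and 53.6 CPM in the Ogt-KD libraries, which gave a difference of -0.34 in log2 (SE 0.07, edgeR adjusted p = 0.496). Its groups were far apart for their spread, which was 1.03 and 1.82 CPM. Tle1 had -0.48 (SE 0.17).

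Genes of the PI3K and AKT route that controls FOXO1 were mixed, with 7 of 11 below 0 (median -0.09) and 2 lower at an unadjusted p under 0.05. The median was -0.01 with T cell marker scaling, where 6 of 11 were below 0, -0.05 without control replicate 2 and -0.17 without control replicate 3. The 2 genes were Sgk1, a kinase related to AKT (-0.47, SE 0.12, edgeR adjusted p = 0.517), and Pik3r1, the regulatory subunit of PI3K (-0.28, SE 0.11). Of 7 genes listed around BACH2 (Bach1, Mafk, Mafg, Maff, Nfe2l2, Batf and the target Prdm1), 5 lay below 0 (median -0.06). In this list 1 gene was lower and 1 higher at an unadjusted p under 0.05. That median was 0.03 with T cell marker scaling, where 3 of 7 lay below 0, and ran from -0.16 to -0.03 when 1 library was left out, lowest without Ogt-KD replicate 2 and highest without control replicate 2. Prdm1, which encodes the effector regulator Blimp-1 and is repressed by BACH2, was the higher one, at 15.9, 20.02 and 17.3 CPM in the controls and 30.9, 30.9 and 24.2 CPM in the Ogt-KD libraries. All Ogt-KD values of Prdm1 lay above all control values (0.69 in log2, SE 0.15, edgeR adjusted p = 0.483), and it passed in DESeq2. Maff, a small MAF partner, was the lower one (-0.50, SE 0.14).

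Family relatives of the members did not share their direction, with 6 of 12 tested above 0 and a median of -0.00578, which turned positive with upper-quartile scaling (0.00435), with T cell marker scaling (0.08) and without some libraries. At an unadjusted p under 0.05, 2 were higher and 0 lower. Foxp3, a relative of Foxp1 and the regulatory T cell factor, had 0.70 (SE 0.22) and passed with the replicate block (adjusted p = 0.0427 by edgeR). Dap, a relative of Dapl1, had 0.24 (SE 0.10). The other 10 listed relatives were too low to be tested.

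Effector and memory genes lay on the other side of 0, with 14 of 15 above it, a median of 0.42 and 7 higher at an unadjusted p under 0.05, where 5.04% of all genes were. Il2rb, a chain of the receptors for interleukins 2 and 15, averaged 324 ± 37.3 CPM in the controls and 464 ± 35.3 CPM in the Ogt-KD group (0.52 in log2, SE 0.12, edgeR adjusted p = 0.512). The median of this list was 0.27 once control replicate 1 was left out. DESeq2 passed 2 of the 15, Prdm1 and Ccl5, and the replicate block 1, Ccl5 (1.04, adjusted p = 0.0363 by edgeR), a gene named after its value was seen. Of 6 genes of stem-like and follicular helper cells, which keep TCF1, 4 lay above 0 (median 0.13) and 0 reached an unadjusted p under 0.05. With T cell marker scaling 6 of 6 lay above 0 (median 0.21). Leaving out 1 library moved that list's median to 0.07 (control replicate 1), 0.203 (Ogt-KD replicate 2) or 0.06 (Ogt-KD replicate 3). Id3, an inhibitor of E proteins, had 0.38 (SE 0.19) and Slamf6, a surface marker of such cells, 0.15 (SE 0.12). In limma-voom 0 genes of the 8 lists passed, and in DESeq2 0 passed beyond Klf2, Prdm1 and Ccl5.

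**Figure D4:**
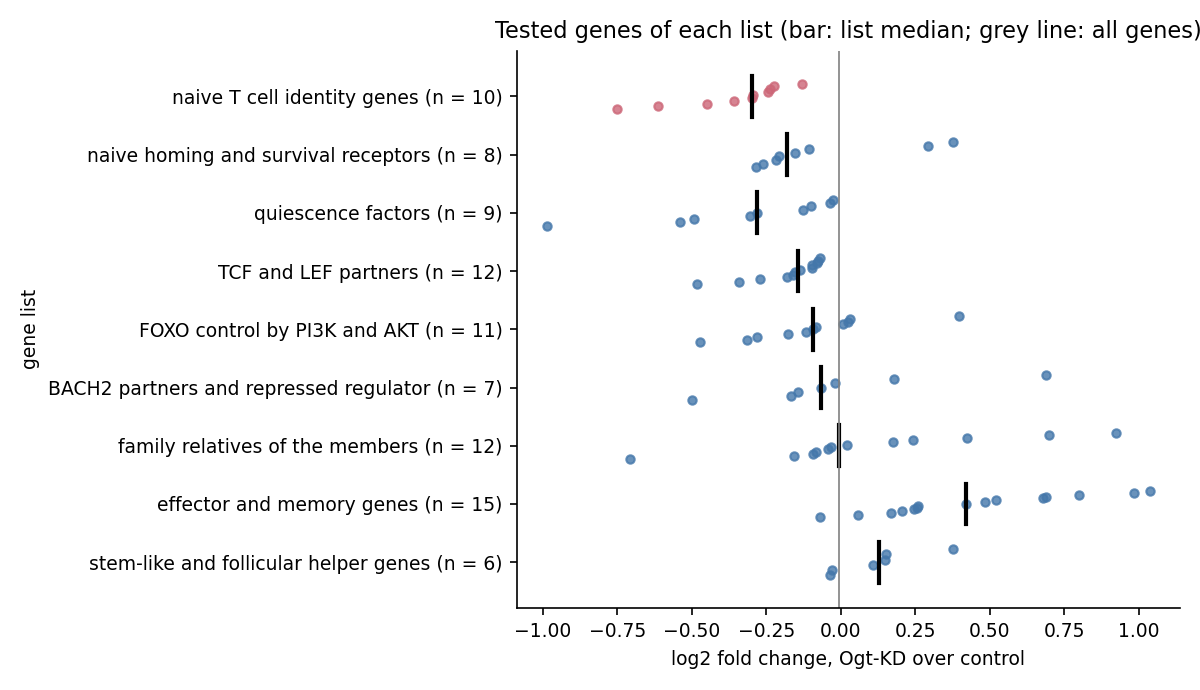
Log2 ratio of Ogt-KD to control for every tested gene of the naive identity list (red) and the 8 related lists (blue), with the list median as a black bar and the median of all tested genes as a grey line. The naive identity genes and quiescence factors lie below 0, and the effector and memory genes have a median of 0.42.

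The 5 genes most like the members were found among 9155 genes of average log2 CPM of at least 3 by Pearson's r over the 6 libraries with the mean of the members. They were Gpatch4 (r = 0.997), Tgfbr2 (0.995), Nmt2 (0.994), Ptcd2 (0.994) and Pknox1 (0.993). This is a ranking over 6 points that share the group difference and the scaling, and it carries no test. Tgfbr2, a chain of the TGF-beta receptor, stood at 455.1, 403.9 and 392.8 CPM in the controls and at 343.4, 314.3 and 317.7 CPM in the Ogt-KD libraries. Pknox1, a homeobox factor, had the lowest fold change of the 5 (-0.51, SE 0.11, edgeR adjusted p = 0.483).

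Markers of other cells had sums that overlapped between the groups for every list, and of 41 tested markers 0 passed in edgeR, 0 in limma-voom and 1 in DESeq2. At an unadjusted p under 0.05, 7 were higher in edgeR and 0 lower, where 5.04% and 2.48% of all genes were. With the replicate block, markers higher in Ogt-KD libraries included the dendritic cell genes Itgax (log2 fold change 1.27 in the fit without the block, as for the next values, and edgeR adjusted p = 0.0363 with it) and Zbtb46 (1.43, 0.0481) and the erythroid gene Slc4a1 (2.92, 0.048). Summed levels of 7 dendritic cell markers were 28.4 to 78.3 CPM in the controls and 66.4 to 200.7 CPM in the Ogt-KD group, and 7 of 7 had a log2 fold change above 0. For 7 erythroid markers the sums were 16.8 to 46.1 and 39.8 to 185.8 CPM, and for 8 B cell markers 100.1 to 142.0 and 133.2 to 176.3 CPM, again all above 0. B cells also make Bach2, Foxp1, Foxo1 and Treml2, and myeloid cells make Treml2. All 8 neutrophil markers lay above 0, with overlapping sums of 110.1 to 218.8 and 127.0 to 299.8 CPM. All 6 macrophage markers lay below 0, with a median of -0.54. By library, macrophage sums were highest in replicate 3 of each group (2335 and 2254 CPM), where Treml2 was lowest (140.0 and 92.0 CPM). In replicates 1 and 2 the sums were 981 and 1057 CPM in the controls and 404 and 502 CPM in the Ogt-KD libraries. Treml2 was at 177.2 and 199.0 CPM in those controls and at 114.5 and 131.4 CPM in those Ogt-KD libraries. Platelet marker sums were 3.97 to 5.58 and 4.996 to 5.79 CPM, with Gp1bb at 0 in every library, and 5 of these 6 markers were too low to be tested. NK cell markers had sums of 6.24 to 10.9 CPM in the controls and 6.34 to 13.6 CPM in Ogt-KD libraries. The part of these cells in the differences was not tested.

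T cell markers had a median log2 fold change of -0.10, with 7 of 10 below 0 and sums of 5049 to 5467 CPM in the controls and 4714 to 5064 CPM in Ogt-KD libraries. With each library scaled to these T cell markers, all 10 members still lay below 0, with a median of -0.20, from -0.04 for Igfbp4 to -0.66 for Dapl1, where 32.4% of all genes lay below 0. On that scale 3 members were lower at an unadjusted p under 0.05, and 0.964% of all genes.

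The count of 6 members lower at an unadjusted p under 0.05, where 2.48% of all genes were, depended on the libraries. It was 1 once control replicate 1 was left out (1.54% of genes) and 2 once Ogt-KD replicate 2 was (1.68%), both with fewer samples for the test. Without replicate 3 of both groups it was 6, while the share of all genes was 7.22%, and the members' median log2 fold change was -0.38.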

How the data were processed

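CD4+ T cell RNA of 6 libraries was analysed, 3 per group as the sample titles give them. The deposited table, made with Bowtie2 2.0.6 and TopHat2 2.0.9 on mm9 per the submitters' processing notes, holds raw read counts per gene. Its coordinates are those of GRCm38: 53585 of 54532 genes have those of GENCODE M21. No counting tool or strand setting is named in the labels. The authors' FPKM equal counts over the deposited gene length (an other unit, in bases) and a library constant. Group means of normalised signal by the authors entered no test, and the authors' log2 fold change and p-value were only read.

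Counts were fitted with edgeR 4.0.16 in R 4.3.3 (quasi-likelihood test, robust, TMM, filterByExpr) over 16075 genes. Adjusted p-values are over all of these. limma 3.58.1 (voom), DESeq2 1.42.0, other scalings and filters, a replicate block and leaving out libraries were alternatives. SE is the log2 fold change over the root of F. The members, gene lists and tests were chosen with earlier results of these data known. Named genes were all members, the 2 smallest p values of each related list, and the 5 genes most like the members. No libraries were copies (chi-squared per degree of freedom 10.8 to 96.2 over pairs).

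After group means were removed, same-numbered control and Ogt-KD libraries correlated across genes at 0.109, 0.346 and 0.523. Other pairs ranged from -0.418 to 0.267. The pairing comes from the data, so p-values of the blocked fit can be too small. Genes annotated over a member held at most 6.18% of its count, and genes on the opposite strand at most 2.18%, both without known strand. These were found for 7 and 6 members.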

Additional observations from a re-analysis of the deposited data

How the results depend on the processing

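Across 15 alternatives the log2 fold change of the 10 members gave 150 values, of which 150 lay below 0. These values reuse the same libraries and are not separate observations. Leaving out 1 library at a time they ran from -0.997 to -0.02. The count of members passing was 0 in all alternatives except the replicate block, where it was 1 (Treml2, log2 fold change -0.61); no other call of a member changed with the block. Members at an unadjusted p under 0.05 numbered 3 with T cell marker scaling (0.964% of all genes lower) and 1 to 6 leaving out 1 library. The share of all genes lower at that threshold then ran from 1.54% without control replicate 1 to 8.78% without Ogt-KD replicate 3, where 4 members were. The count of all genes passing was 1, and 4 without a filter, 0 with at least 10 counts in every library, 111 in DESeq2, 47 with the replicate block and 35 without replicate 3 of both groups. Leaving out 1 library it ran from 1 to 2. Medians of the 8 related lists moved beyond the replicate spread in 14 of 120 values and changed sign in 8, 7 for the family relatives and 1 for the BACH2 list (0.03 with T cell marker scaling). The order of the members' levels was the same with TMM-scaled counts per length for 10 of 10. The cause of these changes was not tested.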
